A study of Drosophila melanogaster with 3 samples.

Results

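Tinman-GFP binding was examined at the nuclear genes of the respiratory chain and the ATP synthase of Drosophila melanogaster. Members were the protein-coding genes on the nuclear arms whose symbol begins with ND-, COX and a digit, UQCR- or ATPsyn. They numbered 80 of 13945 protein-coding genes. Whole transgenic embryos aged 0 to 16 h, of mixed sex, carried a C-terminal GFP fusion of tinman (tin), the homeobox factor of the heart and dorsal mesoderm. The fusion protein was immunoprecipitated with an antibody against GFP in 3 biological replicates, which form 1 group with no second condition. The label for the antibody gives tin, whereas the free text gives GFP. All embryonic tissues contributed chromatin, so a peak cannot be assigned to a cell type. Untagged embryos were not analysed here. The data were ranked lists of peaks with a peak caller score and no read counts, so the depth behind a peak is unknown and no test between groups could be made.

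Oxidative phosphorylation is carried out in the inner mitochondrial membrane. Complex I takes electrons from NADH, complex III passes them to cytochrome c, complex IV reduces oxygen, and the proton gradient that they build drives the ATP synthase, also called complex V. Most subunits are encoded in the nucleus and must be made in fixed proportion with those encoded in mitochondrial DNA. Fly genomes also hold duplicates of many of these genes, many of which are expressed mainly in the testis.

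Of the 80 members, 7 were core subunits of complex I, 27 were accessory subunits of complex I, 6 belonged to complex III, 8 to complex IV and 11 to the ATP synthase. The other 21 were duplicates, named with a final L or L and a digit. Subunits with symbols outside the rule are not members, so shares by complex cover the members only. Some of them are given with the other pathway genes. The annotation held no member in the class of complex IV assembly factors, COX followed by 2 digits. Chromosome arms 2L and 3R held 16 members each, 3L held 19, 2R held 15, X held 12 and 4 held 2.

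A promoter peak was counted where the summit of a peak in the list that passed the authors' reproducibility analysis (IDR) lay within 500 bp of an annotated transcription start site (TSS). Such a peak was found at 21 of the 80 members (26.2%), against 24.3% of all coding genes, so the family as a whole lay near the background. The members separated by kind. Of the 59 that are not duplicates, 21 had a promoter peak (35.6%, Wilson 95% interval 24.6 to 48.3), and of the 21 duplicates none had (upper limit 15.5%). The intervals cover counting error only. Complex IV had promoter peaks at 5 of 8 genes (62.5%) and the ATP synthase at 6 of 11 (54.5%). Complex I had them at 3 of 7 core genes (42.9%) and 7 of 27 accessory genes (25.9%). Complex III had them at none of its 6 members, the UQCR- genes, with an upper limit of 39%. The intervals of the complexes, drawn in the bar plot, overlap one another.

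**Figure D1:**
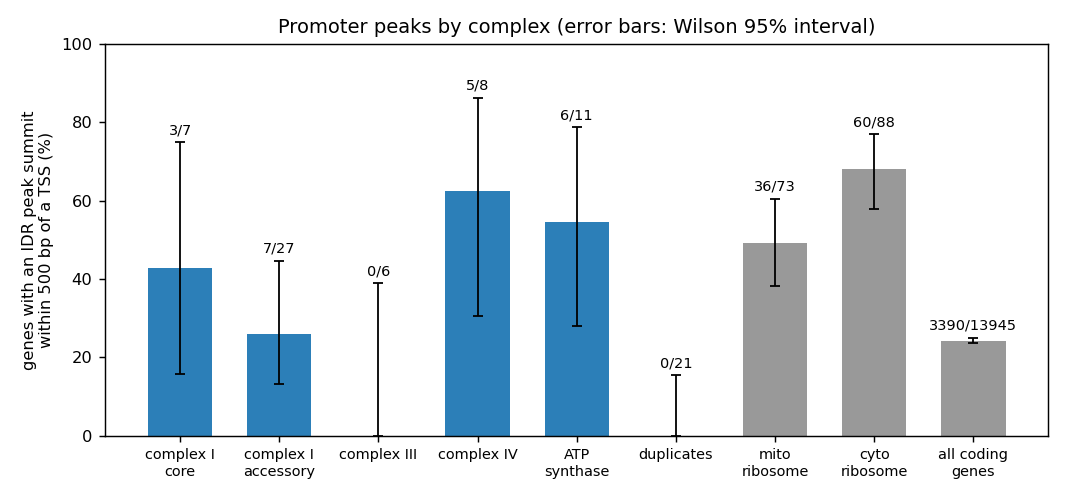
Percent of genes with an IDR peak summit within 500 bp of a TSS, by complex (blue), for the duplicates (red) and for ribosomal protein genes and all coding genes (grey); bars start at 0, error bars are Wilson 95% intervals and the counts stand above. Complex IV reached 62.5% and the ATP synthase 54.5%, while the UQCR- genes of complex III and the duplicates stood at 0, against 24.3% of all coding genes.

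The 3 replicates were also read one at a time. Each replicate list was reduced to its 5508 highest entries, the length of the IDR list. Promoter entries were then found at 26, 21 and 23 members in replicates 1, 2 and 3, or 32.5%, 26.2% and 28.8%, against 25.3%, 22.8% and 23.1% of all coding genes. The members' mean was 29.2% ± 3.15 and that of all coding genes 23.7% ± 1.40 (SD, n = 3). Without the duplicates the mean was 39.0% ± 4.48, and each of the 3 values lay above that of all coding genes. The ATP synthase had 8, 4 and 6 of its 11 genes, the widest spread among the complexes. The UQCR- genes of complex III had none in any replicate.

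Weaker entries were common at these promoters. In the pooled list of 30000 entries, which includes entries that did not pass IDR, promoter entries were present at 53 of 80 members (66.2%), against 52.7% of all coding genes. This was 50 of the 59 members that are not duplicates (84.7%) and 3 of the 21 duplicates (14.3%). All 8 complex IV genes and 5 of the 6 complex III genes were among them. Between the pooled and the IDR list lay 29 members that are not duplicates. The nearest below the end of the IDR list, at rank 5508, were ND-B18 at rank 5583, ND-30 at 5998 and COX7C at 6037. The lowest inside it were ATPsynC at 3797, ATPsynF at 4346 and ATPsynO at 4894.

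The IDR list was made from these replicates, so agreement between them is partly fixed by the choice of list. Each of the 21 promoter peaks overlapped an entry in all 3 replicate lists, and 19 of the 21 (90.5%) were among the top 5508 entries of every replicate, against 75% of all coding genes with a promoter peak. The exceptions were ATPsynF, at rank 8680 in replicate 2, and ATPsynO, at rank 7987 in replicate 2. The median rank was 2027 for the members, against 2216 for all coding genes with a promoter peak. The replicate medians of the members were 1737, 1928 and 1969 (1878 ± 124, SD, n = 3). Their pooled scores ran over a range of 163 to 819 with a median of 312, against a median of 295 for all coding genes with a promoter peak.

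**Figure D2:**
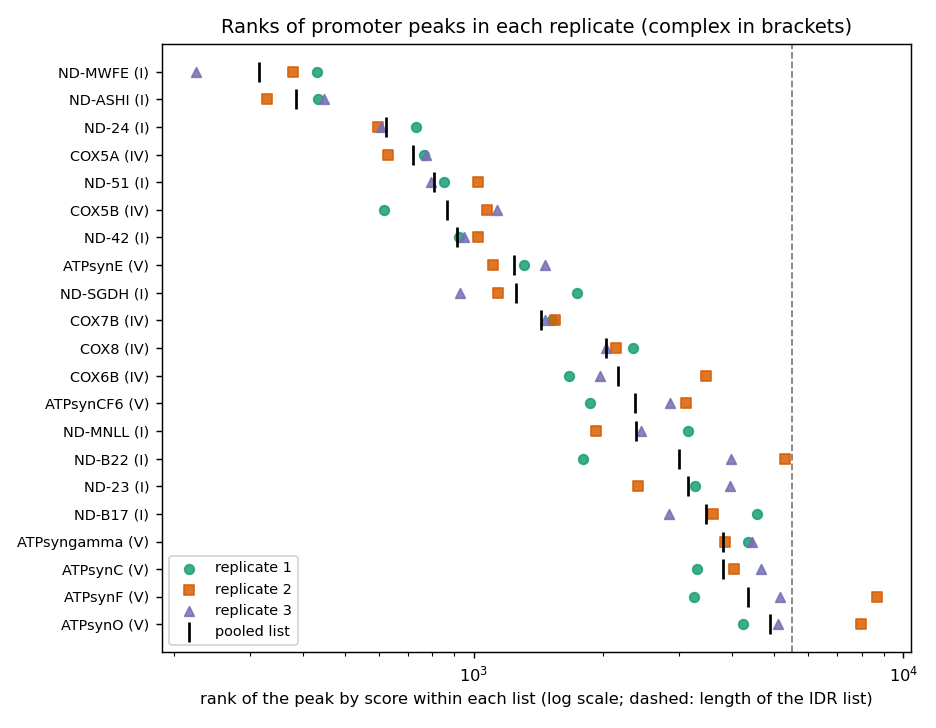
Rank by score (log axis, low is strong) of each of the 21 promoter peaks in replicate 1 (circles), replicate 2 (squares), replicate 3 (triangles) and the pooled list (bars); the dashed line is rank 5508, the length of the IDR list. ND-MWFE and ND-ASHI lead in all lists, and ATPsynF and ATPsynO cross the line in replicate 2.

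Complex I held the strongest peaks. ND-MWFE, the fly counterpart of the small accessory subunit NDUFA1, ranked 431, 378 and 225 in replicates 1, 2 and 3 and 316 in the pooled list, with replicate scores of 266, 239 and 319. ND-ASHI, the counterpart of NDUFB8 in the membrane arm, ranked 432, 330 and 446. Both lay among the upper 500 entries of every list. ND-24 and ND-51 are core subunits of the NADH-binding module at the tip of the complex. ND-24 ranked 733, 598 and 607, and ND-51 ranked 852, 1021 and 793. The third peak at a core gene was that of ND-23, an iron-sulphur subunit on the path to ubiquinone, which was weaker at 3273, 2409 and 3940. The 4 core genes without a promoter peak were ND-75, ND-49, ND-30 and ND-20.

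Among the accessory genes, ND-42, the counterpart of NDUFA10, ranked 921, 1023 and 946, a narrow spread. ND-SGDH, ND-MNLL, ND-B22 and ND-B17 belong to the membrane arm. ND-SGDH ranked 1737, 1135 and 927. ND-MNLL ranked 3148, 1928 and 2443. The last pair were weaker than most, ND-B22 at 1796, 5309 and 3977 and ND-B17 at 4554, 3607 and 2842. ND-B22 was the least even of them, with replicate scores of 126, 49.8 and 62.0.

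In complex IV, COX5A ranked 764, 629 and 774 and COX5B ranked 618, 1070 and 1134. COX7B ranked 1521, 1546 and 1465, the closest agreement of its complex. COX8 ranked 2343, 2136 and 2025, and COX6B ranked 1662, 3469 and 1969. All are nuclear subunits that surround the catalytic core encoded in mitochondrial DNA. All 5 lay in the upper 2754 IDR entries, the stronger 50% of that list. The complex IV genes without a promoter peak were COX4, COX7A and COX7C.

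Peaks at the ATPsyn- genes of the ATP synthase were numerous and mostly weak. The alpha subunit gene blw falls outside the naming rule and had a stronger peak, at rank 745 in the pooled list. ATPsynE, a membrane subunit at the interface of the dimer, was the strongest of the ATPsyn- genes, at ranks 1309, 1107 and 1461. ATPsynCF6, part of the peripheral stalk, ranked 1861, 3118 and 2855. ATPsyngamma, the central shaft of the rotor, ranked 4348, 3843 and 4435, and ATPsynC, the proton-carrying ring, ranked 3306, 4042 and 4653. ATPsynF, another membrane subunit, ranked 3258, 8680 and 5161, and ATPsynO, which joins the stalk to the catalytic head, ranked 4222, 7987 and 5104. The 4 weakest of these 6 had pooled scores of 201 (ATPsyngamma), 201 (ATPsynC), 181 (ATPsynF) and 163 (ATPsynO). ATPsynbeta, the catalytic subunit, had no IDR peak, and its pooled promoter entry ranked 14899.

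Sequence at the summit is shown for the strongest members whose summit was nearest to their own TSS and for which sequence could be shown, on the strand of the gene, from the RefSeq Release 6 assembly (dm6). Capitals mark the 11 bases centred on the summit. The window of ND-ASHI is chrX:6679313-6679413 (minus strand), at -245 bp from the TSS. That of ND-24 is chrX:17632150-17632234 (plus strand), 95 bp downstream of it. That of COX5A is chr3R:11819525-11819577 (plus strand), at -48 bp from an internal TSS, and that of ATPsynE is chr3R:14326971-14327000 (plus strand), at 38 bp. Windows that reach into an untranslated region were shortened.
ND-ASHI: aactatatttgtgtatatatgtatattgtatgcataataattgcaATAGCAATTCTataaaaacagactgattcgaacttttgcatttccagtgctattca
ND-24: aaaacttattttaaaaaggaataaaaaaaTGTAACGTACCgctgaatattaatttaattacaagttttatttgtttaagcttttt
COX5A: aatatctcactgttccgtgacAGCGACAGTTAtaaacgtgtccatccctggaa
ATPsynE: taaattgttATGATATTTTCcacaatttct
The summits differ in base composition. Within 50 bp of the summit, GC content at the 21 member summits ran between 13.9% at ND-23 and 55.4% at COX6B, with a mean of 36.1% ± 11.1, against 36.8% ± 9.55 at all coding genes with a promoter peak (SD over genes).

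The Tinman site, TCAAGTG or TTAAGTG on either strand, was found within 50 bp of 1 of the 21 member summits (4.76%), against 2.98% of all coding genes with a promoter peak. That member was COX5B, with the site 16 bp from the summit. The window is chr2L:6557488-6557588 (plus strand), and capitals mark the site, here on the reverse strand of the gene.
COX5B: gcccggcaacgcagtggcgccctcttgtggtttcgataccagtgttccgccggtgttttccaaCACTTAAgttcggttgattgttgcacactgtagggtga
This summit lay at -262 bp from COX5B and 36 bp from the TSS of IFT52, an intraflagellar transport gene on the opposite strand. Over the promoter, 250 bp before to 50 bp after the TSS, a Tinman site was found at 6 of 59 members that are not duplicates (10.2%), against 10.3% of all coding genes.

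Most member summits lay close upstream of a TSS. Positions are given from the nearest annotated TSS of the gene, upstream as negative. The median position was -74 bp (quartiles -124 and -48 bp), against -120 bp for all coding genes with a promoter peak. Of the 21, 19 were upstream (90.5%), against 90.4%, and 12 were within 100 bp of the TSS (57.1%), against 39.9%. The farthest upstream was ND-42, at -309 bp, and the farthest downstream ND-24, at 95 bp. The summits of COX5A, ATPsyngamma and ND-B22 lay upstream of an internal TSS only and were 192, 263 and 65 bp inside the gene, counted from its start. Counted that way, 16 of the 21 were upstream (76.2%), against 77% of all coding genes with a promoter peak. Taken by replicate, the members' median was -68, -117 and -68 bp in replicates 1, 2 and 3 (SD 28.3 bp), against -113, -127 and -130 bp for all coding genes.

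Many of these peaks lay near the TSS of a further gene. ND-42 and COX8 had 2 promoter peaks each (2 of 21, 9.52%, against 14.1% of all coding genes with a promoter peak), and positions here are those of the higher one. Another coding gene's TSS was within 500 bp of the summit at 17 of the 21 (81%), against 59.8% of all coding genes with a promoter peak. The summit was nearest to the member's own TSS at 13, level between the member and a neighbour at 1, and nearer another gene at 7. The 7 were ND-MWFE, 55 bp from TppII, ND-51, 90 bp from CG13994, COX5B, ND-42, 80 bp from Cchl, COX6B, 36 bp from CG33932, ATPsynCF6, 99 bp from Sec13, and ATPsynF, 62 bp from CG3548. Cchl attaches haem to cytochromes, and the ND-42 summit lay just beyond its TSS. The second ND-42 peak, of rank 1326, lay at -77 bp, nearer ND-42 than Cchl (152 bp). The ND-ASHI peak lay 277 bp from Fum1, the fumarase of the citric acid cycle. The higher COX8 peak lay 341 bp from VhaM9.7-b, a subunit of the vacuolar proton pump, and the second one, of rank 3436, lay at -294 bp from COX8 and 121 bp from VhaM9.7-b. ND-MNLL shared its TSS with CG45089 on the same strand. For such peaks the lists do not say which of the genes the binding belongs to.

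**Figure D3:**
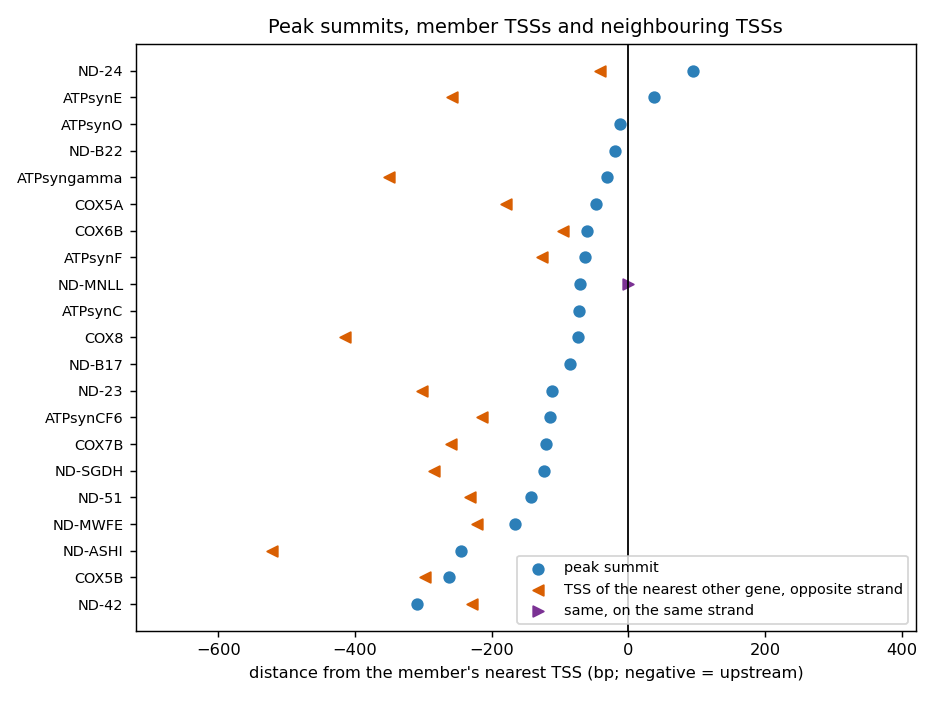
Position of each of the 21 peak summits (circles) and of the TSS of the nearest other coding gene (triangles, by strand) relative to the member's nearest TSS at 0, in bp, negative upstream; neighbours beyond 700 bp are not drawn. Most summits lie a short way upstream of the nearest TSS of the member, and the neighbouring TSS is mostly on the opposite strand further upstream.

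The arrangement of the neighbours moved with binding. Members were called head to head where another coding gene starts on the opposite strand within 500 bp upstream, a split chosen after the data were seen. This held for 35 of the 59 members that are not duplicates (59.3%), against 27.4% of all coding genes, and for 3 of the 21 duplicates. Promoter peaks were found at 17 of the 35 head-to-head members (48.6%) and at 4 of the other 24 (16.7%). All coding genes gave nearly the same shares, 49.2% head to head and 14.9% otherwise. Within each arrangement the members therefore lay near the background. The 4 members with a peak and no such neighbour were ND-B22, ND-B17, ATPsynC and ATPsynO. Where each summit was counted for the gene with the nearest TSS alone, 15 of the 59 had a peak (25.4%), against 18.1% of all coding genes.

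**Figure D4:**
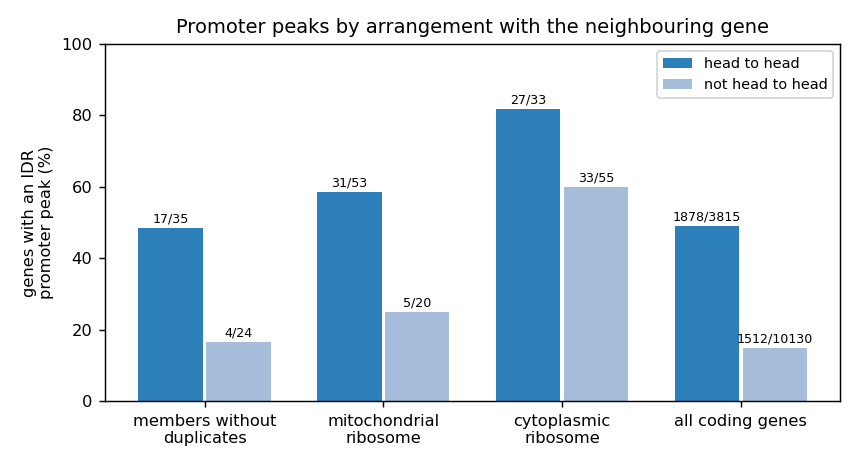
Percent of genes with an IDR promoter peak, split by whether another coding gene starts on the opposite strand within 500 bp upstream (dark) or not (light), for the members without duplicates, the mitochondrial and cytoplasmic ribosomal protein genes and all coding genes; counts stand above the bars. Head-to-head members (48.6%) lie beside head-to-head coding genes in general (49.2%).

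A further 14 members had an IDR peak only in the gene body or within 2 kb, which brought the total to 35 of 80 (43.8%), against 40.6% of all coding genes. At 8 of the 14 the peak lay within 500 bp of the TSS of another coding gene. Of the 6 complex III genes, 4 were of this kind. UQCR-C1 and UQCR-C2, the large core proteins, had peaks of rank 3141 and 5210 that lay 69 bp from Dph2 and 51 bp from Rpn12. UQCR-14 and UQCR-Q had peaks of rank 4307 and 4634 that lay 83 bp from CG32576 and 41 bp from CG34250. The same peaks were 3792, 1147, 2328 and 1132 bp from the TSSs of UQCR-C1, UQCR-C2, UQCR-14 and UQCR-Q. In complex I they were, with the rank in brackets, ND-39 (2792), ND-75 (4605), ND-B16.6 (4819) and ND-B14.7 (1274). Of these, ND-B14.7 had no TSS of another coding gene within 500 bp of the summit. COX7C (1379), ATPsynD (3049) and ATPsyndelta (3311) likewise had peaks more than 500 bp from any TSS of a coding gene.

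No IDR peak was found for 45 members, 27 of them not duplicates. In complex I these were the core genes ND-20, ND-30 and ND-49 and the accessory genes ND-13A, ND-13B, ND-15, ND-18, ND-19, ND-ACP, ND-AGGG, ND-B12, ND-B14, ND-B14.5A, ND-B14.5B, ND-B15, ND-B17.2, ND-B18, ND-B8, ND-MLRQ and ND-PDSW. ND-ACP is the acyl carrier protein of the complex. In complex III they were UQCR-11 and UQCR-6.4, in complex IV COX4 and COX7A, and in the ATP synthase ATPsynB, ATPsynG and ATPsynbeta. Promoter entries in the pooled list ranged over ranks 5583 (ND-B18) to 28106 (ND-19) for those of these genes that had one. Only ND-49, ND-AGGG and UQCR-11 among the members that are not duplicates had no pooled entry within 2 kb.

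The duplicates were rarely bound in any list. Of the 21, 18 had no IDR peak (85.7%), against 59.4% of all coding genes, and 14 had no promoter entry in the pooled or any replicate list (66.7%), against 35%. Pooled promoter entries were found at ATPsynepsilonL (rank 14527), COX7AL2 (19070) and UQCR-6.4L (27409). UQCR-6.4L was the only duplicate with a top promoter entry in a replicate, at rank 4124 in replicate 3, and it ranked 28481 in replicate 1. Those with an IDR peak in the body or within 2 kb were COX7AL2 (1137), UQCR-6.4L (3108) and COX5BL, whose peak is the one upstream of COX5B (866). The remaining 18 were ATPsynCF6L, ATPsynGL, ATPsynbetaL, ATPsynepsilonL, COX4L, COX6AL, COX6AL2, COX6CL, COX7AL, COX7CL, ND-20L, ND-24L, ND-49L, ND-51L1, ND-51L2, ND-B14.5AL, UQCR-11L and UQCR-14L. Of the members that have a duplicate, 4 had a promoter peak, ND-24 (622), ND-51 (808), COX5B (866) and ATPsynCF6 (2373). The others had none, namely COX4, COX7A, COX7C, ND-20, ND-49, ND-B14.5A, UQCR-11, UQCR-14, UQCR-6.4, ATPsynG and ATPsynbeta. Over both lists together, the share with a promoter peak lay near the 24.3% of all coding genes. Since no duplicate had a promoter peak, a pair could differ only through the other gene.

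COX5B and COX5BL are neighbours on the same strand, and their sequences are set side by side. The 150 bases before the TSS are given for each, from chr2L:6557650-6557799 (plus strand) and chr2L:6559281-6559430 (plus strand). The Tinman site, DRE, M1BP core, NRG core, E-box CAGCTG and TATA box, spelled out with the promoter motifs, were found in neither stretch. The COX5B stretch leaves out its summit at -262 bp, its Tinman site at -246 bp and its M1BP core at 16 bp. From 250 bp before to 50 bp after its start, COX5BL held neither the Tinman site nor the M1BP core.
COX5B: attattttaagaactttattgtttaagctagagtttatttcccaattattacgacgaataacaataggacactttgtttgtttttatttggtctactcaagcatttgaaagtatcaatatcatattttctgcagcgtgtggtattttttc
COX5BL: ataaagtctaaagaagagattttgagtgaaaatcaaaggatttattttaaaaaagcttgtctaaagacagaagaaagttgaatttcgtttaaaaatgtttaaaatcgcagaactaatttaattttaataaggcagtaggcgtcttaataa
COX5BL had promoter entries of rank 14180 in replicate 1 and 27977 in replicate 2 and none in replicate 3 or the pooled list. The COX5B peak had ranks of 618, 1070 and 1134 in the same replicates.

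Of the 5 promoter motifs given here, taken from a longer list, 4 were more frequent in the members that are not duplicates than in all coding genes. Of the others searched, the E-box CACGTG was found in 3.39%, against 4.2%, and the Zelda motif CAGGTAG in 3.39%, against 1.64%. The NRG core, described below, was found in 8.47%, against 5.18%, and the Tinman site was level. The M1BP core GGTCACAC, bound by a zinc finger factor of constitutive promoters, was found in the promoter of 14 of 59 members that are not duplicates (23.7%), against 7.70% of all coding genes. The DNA replication element TATCGATA (DRE) was found in 9 of 59 (15.3%), against 9.36%, the E-box CAGCTG in 18 of 59 (30.5%), against 17.7%, and the TATA box TATAAA in 37 of 59 (62.7%), against 45.8%. The GAGA motif GAGAG was found in 16.9%, against 29.7%. Each was searched on both strands. The duplicates held the M1BP core in 1 of 21 promoters, the E-box in 1, the TATA box in 6 and the DRE in none, and GAGAG in 33.3%. Mitochondrial and cytoplasmic ribosomal protein genes held the DRE in 20.5% and 31.8% and the E-box in 54.8% and 9.09%. They held the M1BP core in 11% and 14.8% and the TATA box in 46.6% and 48.9%. Among genes with a promoter peak, the DRE was found in 2 of 21 members (9.52%), against 16%, and the M1BP core in 6 (28.6%), against 11.6%. Neither the M1BP core nor the DRE was found within 50 bp of any of the 21 member summits, against 2.83% and 5.52% of all coding genes with a promoter peak. In the same windows the E-box CAGCTG was found at 3 of 21 (14.3%), against 5.72%, the TATA box at 5 of 21 (23.8%), against 17.7%, and GAGAG at 1 of 21 (4.76%), against 8.61%.

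A sequence feature that the rule did not use was frequent in the family. The nuclear respiratory gene (NRG) element is a palindromic sequence of Drosophila genes for mitochondrial proteins. Its core takes the forms TTATATAA, TTATGTAA, TTACATAA and TTACGTAA, the first of which can overlap a TATA box. In the 500 bp after the gene start, a window chosen after a wider search had shown matches there, a core was found in 41 of the 59 members that are not duplicates (69.5%), against 787 of 13945 coding genes (5.64%). None of the 21 duplicates held one. In the 500 bp before the gene start the share was 11.9%, against 9.62%. By complex, the core was found in 7 of 7 core genes of complex I, 16 of 27 accessory genes, 3 of 6 complex III genes, 5 of 8 complex IV genes and 10 of 11 ATP synthase genes. Mitochondrial ribosomal protein genes held it in 14 of 73 (19.2%) and cytoplasmic ones in 1 of 88 (1.14%).

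The cores clustered. The first core of a gene lay 17 to 482 bp after the gene start, with a median of 229 bp (quartiles 207 and 327). Between 200 and 250 bp, 19 of the 59 genes (32.2%) had a core, against 0.817% of all coding genes. The first core fell in an intron in 22 genes, in an untranslated region in 17 and in coding sequence in 2. The 41 genes held 44 cores, of which 15 were TTACATAA, 12 were TTACGTAA, 10 were TTATGTAA and 7 were TTATATAA. Windows of 28 bases around the first core, in capitals, on the strand of the gene, are given for members with a promoter peak. Those in an intron lie at chrX:17632523-17632550 (ND-24), chr2L:6062500-6062527 (ND-51), chr3R:15836894-15836921 (ND-23), chr2L:15750684-15750711 (ND-B17), chr2L:6558169-6558196 (COX5B), chr3L:17425684-17425711 (COX7B), chr3R:23355842-23355869 (ATPsynCF6) and chr3R:15265819-15265846 (ATPsynO). Those in an untranslated region lie at chrX:6678674-6678701 (ND-ASHI), chrX:19744026-19744053 (COX6B), chr3R:14327258-14327285 (ATPsynE) and chr3R:29749056-29749083 (ATPsyngamma).
ND-24: gttccccgagTTATATAAttggcgacag
ND-51: tgccatcaaaTTATGTAAtttttgcgca
ND-23: gcgagtgaggTTATGTAAgcttatgtca
ND-ASHI: gaatctagcaTTACATAAggcaaaatat
ND-B17: gtcgtgggtaTTATGTAAtcaagttttt
COX5B: aagtgcgaggTTATGTAAtaactatgcg
COX6B: aaagtacaagTTACATAActcgctgatg
COX7B: accttaaaaaTTACATAAtgtggataag
ATPsynCF6: aacaattgtaTTACATAAcctttttaag
ATPsynE: ggtcggacaaTTACATAActtgaagaag
ATPsynO: cgtttcttggTTATGTAAtttttgccca
ATPsyngamma: taattatgagTTACATAAattcaaatta
The same windows are given for members without a promoter peak, which held the core as well. Those in an intron lie at chr3R:14890463-14890490 (UQCR-C1), chr3L:9730219-9730246 (ATPsynB) and chr2L:10976168-10976195 (ATPsynG). Those in an untranslated region lie at chrX:8251432-8251459 (ND-75), chr4:571521-571548 (ND-49) and chr2L:19959090-19959117 (COX4).
ND-75: accaaaacacTTATGTAAtttttattgg
ND-49: agcagaaccaTTATGTAAgttcctagta
COX4: ctgctagctgTTACATAAcctccaacta
UQCR-C1: aggatttaaaTTACGTAAttgtaaatga
ATPsynB: acatcgtggtTTATGTAAtcaccaccca
ATPsynG: aatcgcaaaaTTATGTAAtgatcacttt
Some windows are alike beyond the core, as ND-51 and ATPsynO are after it, while others are not.

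**Figure D5:**
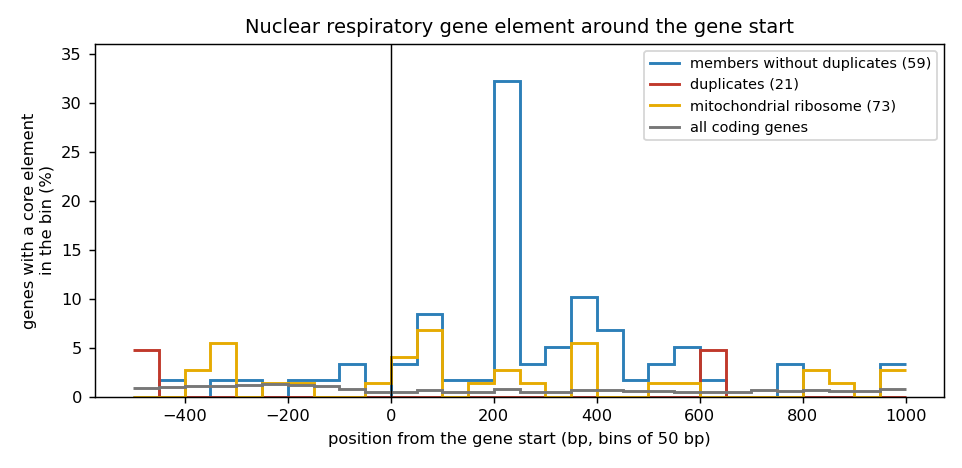
Percent of genes with an NRG core starting in each bin of 50 bp, from 500 bp before to 1000 bp after the gene start, for the members without duplicates (blue), the duplicates (red), the mitochondrial ribosomal protein genes (yellow) and all coding genes (grey). The members reach 32.2% in the bin from 200 to 250 bp, while all coding genes stay low throughout.

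Peak summits did not lie on the cores of the first 500 bp. Since 16 of the 21 summits lay upstream of the gene start, this is partly set by that window. No such distances were computed for all coding genes. Members with a promoter peak held a core in 18 of 21 (85.7%), and the members that are neither duplicates nor bound in 23 of 38 (60.5%). All coding genes held one in 6.43% with a promoter peak and 5.39% without. Whether the arrangement of neighbours enters into this was not tested. Read the other way, 18 of 41 members with a core had a promoter peak (43.9%), against 3 of the 18 without (16.7%), while over all coding genes the shares were 27.7% with a core and 24.1% without. The 20 cores of the bound members lay 166 to 679 bp from the summit, with a median of 347 bp, and none was within 100 bp. In the pooled list, 3 of 43 cores lay within 50 bp of a summit.

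Cores upstream of the gene start were found within 50 bp of the summit at ND-SGDH and ND-MNLL, 2 of 21, against 2.30% of all coding genes with a promoter peak. Their windows on the strand of the gene are chr3L:12138658-12138758 (minus strand) and chrX:7893819-7893919 (minus strand), with the core in capitals.
ND-SGDH: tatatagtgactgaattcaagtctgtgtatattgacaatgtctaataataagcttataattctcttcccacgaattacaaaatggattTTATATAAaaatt
ND-MNLL: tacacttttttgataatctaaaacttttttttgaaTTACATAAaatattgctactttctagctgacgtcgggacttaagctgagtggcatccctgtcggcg
ND-SGDH ranked 1250 and ND-MNLL 2383 in the pooled list, against a median of 2027 over the 21 promoter peaks.

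Genes of the same pathway that carry other names were also bound in part. Of 18 genes for complex II, electron carriers and other subunits, 7 had a promoter peak (38.9%), against 24.3% of all coding genes. The 7 included ox, a complex III subunit, at rank 4217. The strongest were Cyt-c-d, a cytochrome c, at rank 283, blw, the alpha subunit of the ATP synthase, at 745, levy, a complex IV subunit, at 951, and SdhC, a membrane anchor of complex II, at 2825. The Cyt-c-d summit lay 387 bp downstream of its TSS. Cyt-c-p, the other cytochrome c gene listed, had an IDR peak only in its body or within 2 kb (rank 438). Of 11 citric acid cycle genes, 6 had a promoter peak (54.5%), led by Idh3g (226), Fum1 (385), mAcon1 (1100) and Idh3b (1964). Fum1 and ND-ASHI count the same peak. Of 11 regulators of mitochondrial genes, 4 had one (36.4%), namely M1BP (671), ERR (963), Dref (1717) and PolrMT (2545). ERR is the nuclear receptor of the metabolic switch in the embryo, and PolrMT is the mitochondrial RNA polymerase. The NRG core in the first 500 bp was found in 12 of the 18, 7 of the 11 and 2 of the 11 genes of these lists.

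The members that are not duplicates had a promoter peak in 35.6%. Among ribosomal protein genes the share was 49.3% of 73 mitochondrial and 68.2% of 88 cytoplasmic ones. Duplicates were not set apart in the ribosomal sets. Head-to-head genes made up 59.3% of the members that are not duplicates, 72.6% of the mitochondrial and 37.5% of the cytoplasmic set. The interval of the members (24.6 to 48.3) overlaps that of the mitochondrial ribosome (38.2 to 60.5) and not that of the cytoplasmic ribosome (57.9 to 77.0). Median ranks were 2027 for the members, 2416 for the mitochondrial and 1840 for the cytoplasmic ribosomal genes. Summits lay at a median of -74 bp at the members, -134 bp at the mitochondrial and -40.5 bp at the cytoplasmic ribosomal genes.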

How the data were processed

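ChIP-seq was done on 3 biological replicates of whole embryos, grouped by the labels' replicate numbers, with chromatin fragments of 200 to 800 bp per the labels. The authors deposited an IDR list (5508 peaks), a pooled list (30000 entries) and 1 list for each replicate (30000, 30000 and 24711 entries) on dm6. The measure used is the score in the signal column as the authors deposited it, a peak caller value with no fixed range. Aligner, peak caller, versions and the IDR cut-off were not given in the sources used here. Scores were used only to rank peaks within a list. The IDR peaks were the 5508 highest entries of the pooled list. The dm3 lists were not used.

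Genes came from Ensembl release 115 (BDGP 6.54) and sequence from RefSeq Release 6. A summit within 500 bp of any annotated TSS counted as a promoter peak, otherwise in the gene body or within 2000 bp. Replicate entries were matched by an overlap of at least 1 bp. Motifs were searched on both strands, 250 bp before to 50 bp after the gene start and within 50 bp of the summit. Intervals are Wilson 95% intervals and cover counting error only. The code was tested on simulated data. Python 3.11.15, numpy 2.4.6, pandas 2.3.3 and scipy 1.17.1 were used.

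Members and gene lists were chosen with earlier results of these data known. The text names the 20 members with the highest promoter peaks, members with no IDR peak, the duplicates, the members nearest the end of the IDR list and the 4 highest of each pathway list; others were chosen after their values were seen. No test was made, because 1 group has no comparison. Alternatives were other distances, lists, TSS choices, windows and motif forms, and leaving out each replicate.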

Additional observations from a re-analysis of the deposited data

How the results depend on the processing

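Of 59 alternatives, 26 were labelled the same and 33 moved. For counts the limit was a change of 1.5 times, a set factor and no measured spread. The count of members with a promoter peak, 21, changed by more than 1.5 times only with the pooled list (53). The count was 14 with the upper 50% of IDR peaks and 15 with each summit counted for the nearest gene only. The share of all coding genes was 19.9% at 250 bp, 27.6% at 1000 bp, 14.4% with the upper 50% of IDR peaks, 52.7% with the pooled list, 22.1% with 1 TSS a gene, 25.8% with any overlap, and between 19.1% and 20.2% without 1 replicate. Duplicates had 1 promoter peak at 1000 bp and 1 with any overlap, and complex III had 5 with the pooled list. Members with any IDR peak numbered 19 with the upper 50% of peaks. The mean number of members in a replicate was 13.3 with 50% as many entries and 48.0 with whole lists. The median rank without 1 replicate lay between 1432 and 2027, since weaker peaks drop out. Promoter motif shares over all 80 members moved with the window. Within 50 bp of the summit they were 4.76% for the Tinman site, 0% for DRE, M1BP core, E-box CACGTG and Zelda, 14.3% for E-box CAGCTG, 4.76% for GAGA and 23.8% for the TATA box. With 500 bp either side they were 25% for the Tinman site, 53.8% for the NRG core and E-box CAGCTG, 63.8% for GAGA and 77.5% for the TATA box. The short DRE form CGATA gave 50%. For CGATA and for 500 bp either side, no share of all coding genes is given. Those values therefore do not compare the members with other genes. A longer NRG form gave 0%. The longer form asks for further bases beside the core and is stricter than the palindrome. UQCR-C1, whose core and next base on either side read as a palindrome, was not counted in it. Values for the longer form therefore do not show how often the palindromic element is present. The NRG count of 41 was 26 in the first 250 bp (32.5% of the 80 members, against 2.83% of all coding genes). It was 8 in the 500 bp before the start (10%, against 9.62%), near the background. With the longer form in the first 500 bp it was 2 (2.5%, against 0.208%). These NRG windows were chosen after seeing the data. Ranking by the deposited p-value column was not run, because that column is constant. Depth is unknown, which limits what an absent peak shows. No paired analysis was possible because there is 1 group.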
